A study of Homo sapiens with 6 samples.

Results

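The genes described are the cytosolic ribosomal proteins, taken as every listed symbol of the form RPL or RPS followed by a number and at most 1 letter A or X, together with RPLP0, RPLP1, RPLP2 and RPSA. This choice gave 77 of the 20979 gene symbols listed in the study, of which 31 belong to the small subunit, 43 to the large subunit and 3 to the P stalk. The choice used names only and no measured value. Polyadenylated RNA was sequenced from A172, an established human glioblastoma line, after lipid transfection with a control miRNA, with the duplex of miR-324-5p (5p duplex) or with that of miR-324-3p.1 (3p.1 duplex). All cells were harvested 1 day after transfection, RNA was selected with oligo-dT, and stranded libraries were read as 100 bp pairs by DNA nanoball sequencing. Each group held 2 libraries, numbered replicate 1 and 2 in the labels. The labels neither state that replicates were separate cultures nor tie a replicate number to a batch, so p-values reflect no more than the spread among these libraries. All groups were a single cell line under transfection, and no untransfected cells were among the groups compared.

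The ribosome is the particle that translates mRNA into protein. Its small subunit binds and decodes the mRNA, its large subunit joins the amino acids, and the P stalk on the large subunit recruits the elongation factors. Most ribosomal proteins are needed in equal numbers, and their mRNAs are among the most abundant in growing cells. Most of these mRNAs begin with a C followed by a run of pyrimidines, the 5′ terminal oligopyrimidine (TOP) motif, through which mTOR signalling and the RNA-binding protein LARP1 control their translation and stability. Surplus RPL5 and RPL11, bound to 5S rRNA, inhibit MDM2 and so link ribosome assembly to p53. miR-324 is a microRNA whose precursor yields a guide strand from either arm.

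Levels are in TPM, a unit corrected for transcript length in which every library has the same total. A TPM value is therefore a share of the measured RNA, sequencing depth is unknown, and no counting interval can be given. Fewer cells of a type and less RNA per cell cannot be told apart in such bulk samples. Differences are on the log2(TPM + 1) scale and were tested with limma across the 13400 genes that averaged 1 TPM or more, where a Benjamini-Hochberg adjusted p under 0.05 was called. All 77 genes were listed in all 6 libraries and all 77 passed the filter, so no gene of the set was dropped. Of 9 listed glial and mesenchymal glioblastoma markers, VIM was at 4788 to 5910 TPM, SPARC at 6240 to 10284 and CD44 at 708.2 to 928.8. NES was lower at 90.9 to 132.5 TPM, and FN1 was at only 10.1 to 16.6 TPM. The glial markers GFAP (0.05 to 0.25 TPM) and S100B (0 in every library) were at or near 0, and OLIG2 and SOX2, transcription factors of glial progenitors, were low at 2.75 to 4.98 and 1.75 to 3.29 TPM. Of the 4 blood genes listed, CD3E and HBB were at 0 in every library, while PTPRC was at 5.52 to 7.48 TPM and CD14 at 0.67 to 1.29 TPM, and the epithelial and endothelial markers stayed at or under 4.23 TPM.

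The control libraries stood apart from each other. The 10 interferon response genes on a list summed to 771 TPM in control replicate 1 and 2286 TPM in control replicate 2, against 201.8 to 251.4 TPM in the 4 duplex libraries. Control replicate 2 was also the library with the lowest value for 64 of the 77 ribosomal protein genes, whereas it was lowest for 9.51% of all genes fitted. Whether the interferon genes have a part in the ribosomal protein levels was not tested, and the median of the set and its counts of higher and lower genes against the controls are given with and without that library.

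Ribosomal protein mRNAs ranged from a mean of 189.5 TPM for RPL13 to 5628 TPM for RPS27, a ratio of 29.7, with a median of 1577 TPM. Of the 77 genes, 58 had a mean over 1000 TPM and 7 formed a low tail at 450.6 TPM or less. Between 44 and 49 of them were among the 100 most abundant genes of a library. The coefficient of variation of a gene over the 6 libraries was 4.54% to 15.3% with a median of 8.09%. Other genes averaging 100 TPM or more had a median coefficient of variation of 7.96%.

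**Figure D1:**
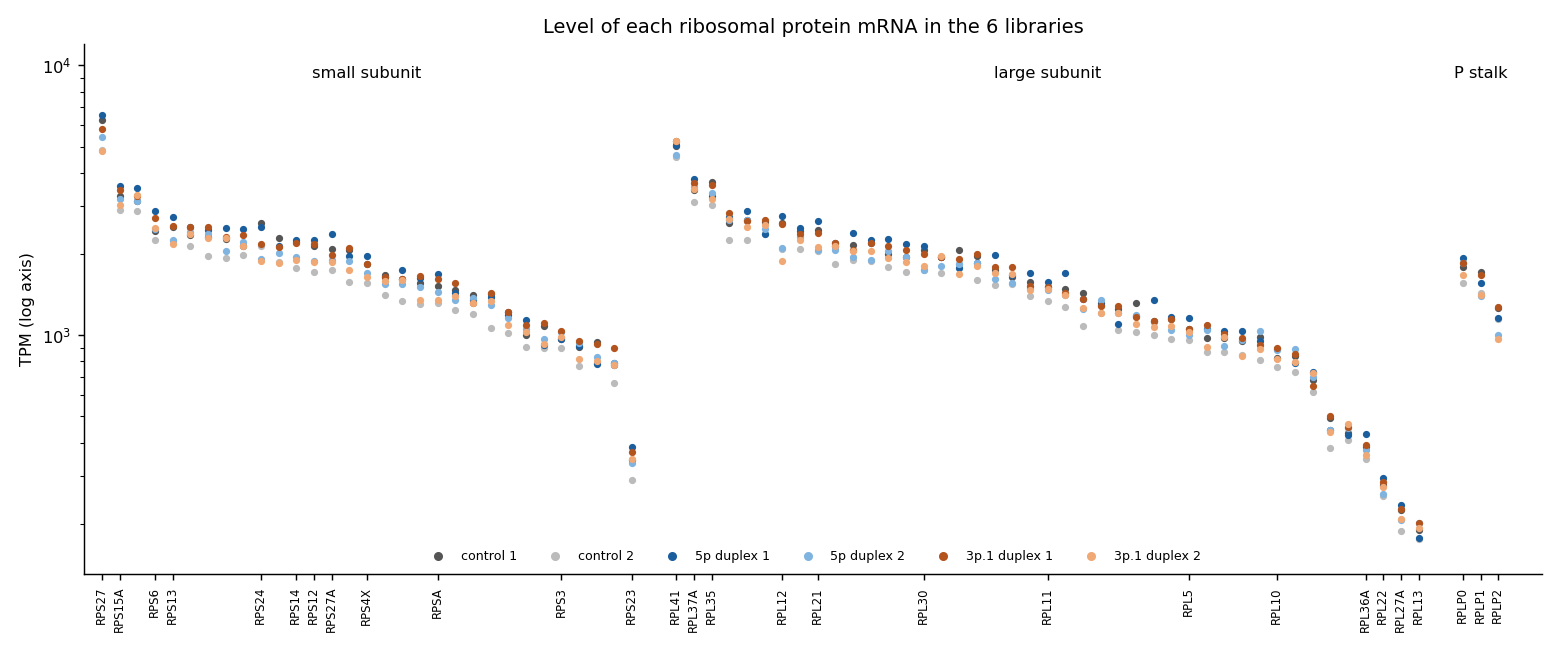
Level of each of the 77 ribosomal protein mRNAs in TPM on a log axis, grouped by ribosomal part and ordered by mean, with names on the axis for some of the genes described in the text and 1 point per library coloured by group and replicate number. Means run from 189.5 TPM (RPL13) to 5628 TPM (RPS27), and the 6 points of a gene lie close together compared with the distance between the top and bottom genes.

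RPS27, a small-subunit protein with a zinc finger, was listed at 6295 and 4840 TPM in control replicates 1 and 2, at 6551 and 5448 in the 5p libraries and at 5799 and 4834 in the 3p.1 libraries. RPL41, a very short basic peptide of the large subunit, was at 5045 and 4579 TPM in the controls, 5083 and 4663 in the 5p libraries and 5232 and 5235 in the 3p.1 libraries. For RPS27 replicate 2 was the lower library in each group, while the 3p.1 libraries of RPL41 were level with each other and above both controls. RPL37A was at 3443 and 3127, 3800 and 3535, and 3668 and 3475 TPM in the same order of libraries. RPL35, which lies near the exit of the peptide tunnel, was at 3700 and 3041, 3278 and 3363, and 3611 and 3195 TPM. RPS15A was at 3285 and 2922, 3581 and 3187, and 3450 and 3028 TPM. The 5 most abundant mRNAs of each library made up 15.9% to 16.1% of the summed TPM of the set.

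At the other end, RPL13 was at 189.2 and 175.4 TPM in control replicates 1 and 2, 177.3 and 201.3 in the 5p libraries and 201.6 and 192.2 in the 3p.1 libraries. RPL27A was at 224.7 and 188.0, 234.8 and 207.0, and 227.1 and 208.5 TPM. RPL22, which also has a separately encoded paralog RPL22L1, was at 278.0 and 254.4, 295.5 and 259.0, and 285.6 and 274.3 TPM. These large-subunit mRNAs were among the lowest in every library although their proteins belong to the same particle as RPL41. RPS23, a protein of the decoding centre, was at 344.8 and 291.0, 384.5 and 337.4, and 369.7 and 347.0 TPM. RPL36A was at 386.7 and 348.2, 429.8 and 376.6, and 392.4 and 359.5 TPM. Groups overlapped for these genes except that both 3p.1 libraries of RPL13 and of RPS23 lay above both controls.

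Across the 77 genes the Spearman correlation of mean TPM with the length of the annotated principal transcript was -0.31, and across 1700 other genes averaging 100 TPM or more it was -0.20. Genes are not independent replicates, and both quantities share the length correction in TPM, so these are descriptions only. The 44 genes with a principal transcript under 1000 nt had a median of 1884 TPM, and the 5 genes with one of 4000 nt or more had a median of 441.0 TPM. Which transcript form A172 cells use was not measured.

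The members with known extra functions were spread through the range. RPS6, the small-subunit protein phosphorylated by the S6 kinases, was at 2424 and 2258 TPM in the controls, 2895 and 2482 in the 5p libraries and 2707 and 2504 in the 3p.1 libraries. RPS3, which sits at the mRNA entry channel, was at 968.9 and 892.8, 964.4 and 1026, and 1033 and 988.9 TPM. RPS6 was above both controls in all 4 duplex libraries and RPS3 in both 3p.1 libraries. RPS27A, made as a fusion with ubiquitin, was at 2086 and 1743, 2376 and 1894, and 1977 and 1867 TPM. RPL5 was at 1051 and 959.8, 1153 and 1001, and 1054 and 1026 TPM. RPL11 was at 1505 and 1335, 1569 and 1468, and 1503 and 1483 TPM. For RPS27A and for these 5S rRNA partners the duplex groups overlapped the controls. RPL10, a late-joining protein near the catalytic centre, was at 821.8 and 765.6, 891.6 and 882.2, and 897.7 and 817.4 TPM, with both 5p libraries above both controls.

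The P stalk comprises RPLP0 and the acidic proteins RPLP1 and RPLP2. RPLP0, the backbone of the stalk, was at 1788 and 1562 TPM in the controls, 1927 and 1855 in the 5p libraries and 1851 and 1675 in the 3p.1 libraries. RPLP1 was at 1714 and 1430, 1565 and 1401, and 1678 and 1404 TPM. RPLP2 was at 1261 and 1150, 1163 and 1003, and 1269 and 971.3 TPM. Both 5p libraries of RPLP0 lay above both controls, whereas RPLP1 and RPLP2 overlapped between all groups.

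Summed over the set, ribosomal protein mRNAs took 13.6% and 11.6% of all TPM in control replicates 1 and 2. The share was 14.0% and 12.7% in the 5p libraries and 13.7% and 12.5% in the 3p.1 libraries. The group means of 12.6% ± 1.37 (SD, n = 2), 13.4% ± 0.896 (SD, n = 2) and 13.1% ± 0.808 (SD, n = 2) differed by less than the SD between the control libraries, and the groups overlapped. In each group replicate 1 had the larger share. The ratio of large-subunit plus stalk to small-subunit TPM was 1.24 to 1.30 over the 6 libraries, and was higher in replicate 2 in each group.

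**Figure D2:**
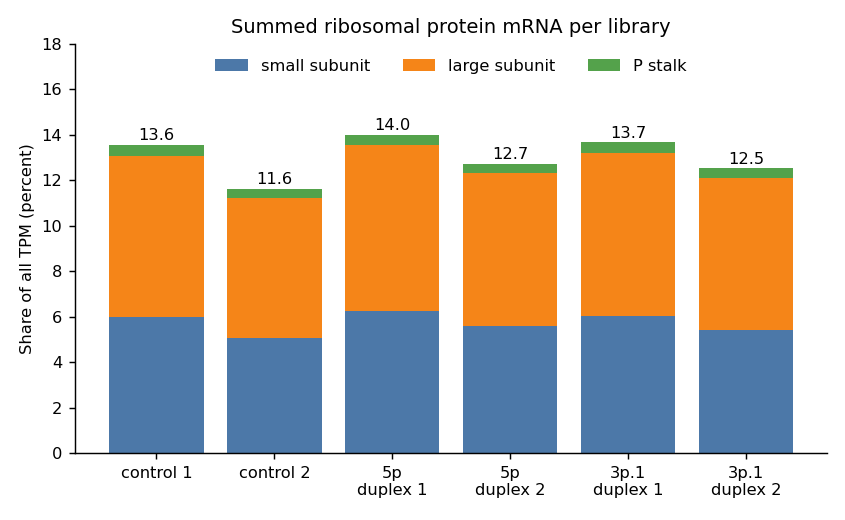
Bars give the share of all TPM, in percent, taken by small-subunit, large-subunit and P stalk mRNAs in each library, with the total above each bar. The totals run from 11.6% in control replicate 2 to 14.0% in 5p duplex replicate 1, and the second library of each group is the lower.

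Promoter entries in the RefSeq table (GRCh38.p14) matched 62 of the 77 genes, and the other 15 were not used in the counts of starts and motifs. A TOP-type start was counted where an annotated transcription start is a C followed by at least 4 bases that are C or T on the transcribed strand. It was present in 46 of the 62 genes (74.2%), against 7.48% of 9882 fitted genes with an entry and 5.14% of all 27305 genes in the table. The runs were 5 to 19 bases long, with a median of 8. Mitochondrial ribosomal protein genes, whose products work in a separate ribosome, had such a start in 6 of 68 (8.82%). On the list of translation factors and other TOP mRNAs, 11 of 18 genes had an entry and 10 of these had such a start. That list was drawn up as TOP mRNAs, so its high share follows from the choice of genes. The sequences below show 20 bases before and 20 bases from the start, with the pyrimidine run in capitals. They are from highly expressed genes and from genes called between replicate numbers, and only genes with such a start are among them.
RPS27, chr1:153990742-153990781, plus strand: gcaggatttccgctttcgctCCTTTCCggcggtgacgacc
RPL41, chr12:56116613-56116652, plus strand: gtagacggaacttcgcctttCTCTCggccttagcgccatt
RPS6, chr9:19380217-19380256, minus strand: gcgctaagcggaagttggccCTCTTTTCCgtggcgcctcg
RPLP0, chr12:120201092-120201131, minus strand: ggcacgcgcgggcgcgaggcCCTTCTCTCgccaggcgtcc
RPL12, chr9:127451387-127451426, minus strand: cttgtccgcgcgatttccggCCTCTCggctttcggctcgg
RPS24, chr10:78033843-78033882, plus strand: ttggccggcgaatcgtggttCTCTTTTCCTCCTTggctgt
RPS12, chr6:132814549-132814588, plus strand: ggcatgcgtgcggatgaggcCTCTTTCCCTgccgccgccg
RPL21, chr13:27251538-27251577, plus strand: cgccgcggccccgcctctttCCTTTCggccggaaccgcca
RPS14, chr5:150449720-150449759, minus strand: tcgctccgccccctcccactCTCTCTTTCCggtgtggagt
RPSA, chr3:39406700-39406739, plus strand: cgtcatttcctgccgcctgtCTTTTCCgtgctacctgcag
RPS13, chr11:17077648-17077687, minus strand: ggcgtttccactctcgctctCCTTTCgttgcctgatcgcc
RPLP1, chr15:69452798-69452837, plus strand: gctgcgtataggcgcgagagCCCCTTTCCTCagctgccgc

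The run was short in RPL41 and long in RPS24, and in these genes it was made of both C and T. A run beginning within 10 bases of an annotated start, on the same strand, was present in 91.9% of the matched ribosomal protein genes and 42.4% of fitted genes. A pair of genes without a run at the annotated start is shown for contrast. Of this pair RPS4X was also among the 11 genes called between replicate numbers. RPL30, another called gene, had no promoter entry.
RPS4X, chrX:72277229-72277268, minus strand: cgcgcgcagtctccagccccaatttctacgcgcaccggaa
RPS29, chr14:49598691-49598730, minus strand: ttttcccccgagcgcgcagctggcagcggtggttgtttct

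Other motifs differed less between the set and other genes. TATAAA between 40 and 20 bases before the start on the transcribed strand was found in 2 of 62 genes (3.23%) and in 1.94% of fitted genes. CCGGAAG, a core of the site of ETS factors, was found anywhere in the 300-base window on either strand in 35.5% against 22.3%. AAGATGGC, the core of the YY1 site, was found in 9.68% against 6.52%. Read on the opposite strand, CCGGAAG begins with pyrimidines and AAGATGGC ends with them, so either can overlap a pyrimidine run, and a match is a description of the sequence only.

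Ribosomal protein genes lie on 21 chromosomes, with at most 12 on one of them (chromosome 19), in the GENCODE 29 annotation of GRCh38. Examples are RPS27 at chr1:153990755-153992155 on the plus strand, RPL41 at chr12:56116586-56117943 on the plus strand and RPL12 at chr9:127447674-127451405 on the minus strand. Of the 77 genes, 28 (36.4%) hold at least 1 snoRNA gene within their bounds, 60 in all, against 1.69% of coding genes. Their principal transcripts had a median length of 866 nt with a 3′ UTR of 78 nt, against 3049 nt and 1013 nt over 11756 fitted genes.

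With the 5p duplex no ribosomal protein gene was called against the control. The limma test called 0 of 77, with a lowest adjusted p of 0.623, beside 0.463% of all 13400 genes called. At an unadjusted p under 0.05 there were 0 of 77, beside 9.16% of all genes. This fit has no term for replicate number, so differences between the numbers stay in its spread. With the replicate number as a block 0 of 77 were called and 18 of 77 were at an unadjusted p under 0.05. The share of all genes at that cut is not given for the block. The estimates were small and mostly of one sign, since 69 genes were higher and 8 lower, with a median log2 difference of 0.097 (a fold of 1.07). The median was -0.030 over all genes and 0.019 over 1778 other genes averaging 100 TPM or more. The spread among the 77 estimates was narrow, with an SD of 0.079 against 0.304 over all genes. It was 0.203 over the other genes averaging 100 TPM or more and 0.109 over mitochondrial ribosomal proteins.

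The largest positive estimates belonged to genes of both subunits. RPL34 was at 1130 and 1006 TPM in control replicates 1 and 2 and at 1347 and 1122 TPM in the 5p libraries, so that the groups overlapped (log2 0.21 ± 0.12 SE, 95% interval -0.085 to 0.50, adjusted p = 0.706 by limma). RPS29, a small zinc-binding protein of the small subunit, was at 1002 and 904.4 TPM in the control libraries, against 1138 and 1053 TPM in the 5p libraries, with no overlap (log2 0.20 ± 0.098 SE, adjusted p = 0.623 by limma). RPS6, whose values are given above, had an estimate of 0.20 ± 0.11 SE and did not overlap either (adjusted p = 0.701 by limma). None of these differences passed the test.

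The lowest estimates were those of RPLP2, RPS24 and RPL39. RPLP2 had -0.16 ± 0.15 SE (adjusted p = 0.849 by limma), with overlapping groups. RPS24, a small-subunit protein mutated in some cases of Diamond-Blackfan anaemia, was at 2615 and 2133 TPM in the control libraries, against 2526 and 1908 TPM in the 5p libraries (log2 -0.11 ± 0.17 SE, adjusted p = 0.913 by limma). Its replicates differed from each other more than its groups did, and its sign turned when control replicate 1 (0.042) or 5p duplex replicate 2 (0.097) was left out. RPL39, which lines the peptide exit tunnel, was at 2060 and 1841.0 TPM in the control libraries, against 1782 and 1840.6 TPM in the 5p libraries (log2 -0.10 ± 0.11 SE, adjusted p = 0.859 by limma). It was the single gene of the set with both 5p libraries under both controls, by a margin of less than a TPM unit. Of all 13400 genes fitted, 2964 had both 5p libraries under both controls.

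Of the 77 genes, 15 (19.5%) had both 5p libraries above both controls, beside 12.7% of all genes. They include RPL6, RPL7A, RPL10, RPLP0, RPS6 and RPS18. The small subunit had a median of 0.12 (28 of 31 higher) and the large subunit a median of 0.080 (40 of 43 higher). These counts depended on control replicate 2: without it 36 genes were higher and 41 lower, with a median of -0.0051. Without control replicate 1 the median was 0.21 and 75 genes were higher. Compared by shared number, 5p duplex replicate 1 minus control replicate 1 had a median of 0.060 (48 higher), and replicate 2 minus replicate 2 had 0.14 (72 higher).

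**Figure D3:**
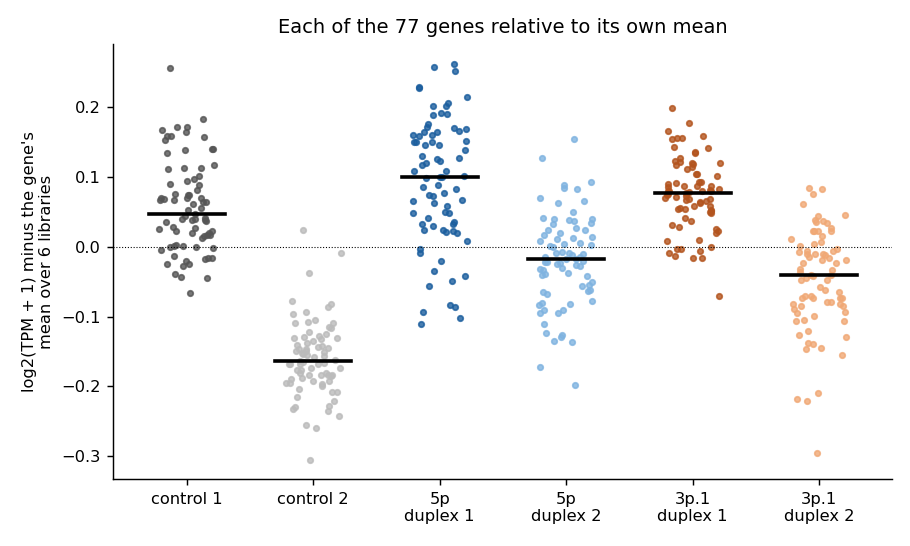
Each point is 1 of the 77 genes in 1 library, as log2(TPM + 1) minus the mean of that gene over the 6 libraries, and black bars are medians. In control replicate 2 the median is -0.16 and 1 gene lies above its own mean, whereas in 5p duplex replicate 1 the median is 0.10 and 65 genes do.

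With the 3p.1 duplex no ribosomal protein gene was called against the control either. The limma test called 0 of 77, with a lowest adjusted p of 0.828, beside 0.0149% of all genes called. At an unadjusted p under 0.05 there were 0 of 77, beside 6.86% of all genes. With the replicate number as a block 0 of 77 were called and 9 of 77 were at an unadjusted p under 0.05, again without the share of all genes. Here 66 genes were higher and 11 lower, with a median log2 difference of 0.075 (a fold of 1.05) against -0.033 over all genes and 0.033 over other genes averaging 100 TPM or more. The SD among the 77 estimates was 0.074, against 0.294 over all genes. It was 0.146 over the other genes averaging 100 TPM or more and 0.097 over mitochondrial ribosomal proteins. This comparison uses the same control libraries as the previous one, so the sign shared by both duplexes is not a second observation.

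RPS9 was at 788.0 and 664.8 TPM in the control libraries, against 894.4 and 775.8 TPM in the 3p.1 libraries, with overlapping groups (log2 0.20 ± 0.12 SE, 95% interval -0.085 to 0.49, adjusted p = 0.837 by limma). RPL7A was at 2595 and 2262 TPM in the control libraries, against 2837 and 2689 TPM in the 3p.1 libraries (log2 0.19 ± 0.11 SE, adjusted p = 0.828 by limma). RPS23 had 0.18 ± 0.12 SE (adjusted p = 0.855 by limma). For RPL7A and RPS23 both 3p.1 libraries lay above both controls, and none of these differences passed the test.

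RPS24 had the lowest estimate, with 2181 and 1879 TPM in the 3p.1 libraries against 2615 and 2133 TPM in the controls (log2 -0.22 ± 0.17 SE, adjusted p = 0.895 by limma). RPLP2 followed with -0.12 ± 0.15 SE (adjusted p = 0.955 by limma) and turned to 0.075 without 3p.1 duplex replicate 2. RPL39 was at 1916 and 1693 TPM in the 3p.1 libraries and had -0.11 ± 0.11 SE (adjusted p = 0.934 by limma). The groups overlapped for all of these genes.

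For 14 of the 77 genes (18.2%) both 3p.1 libraries were above both controls, beside 12.1% of all genes. For 0 of the 77 they were below both controls, beside 3235 of all 13400 genes. The small subunit had a median of 0.077 (26 of 31 higher) and the large subunit of 0.075 (39 of 43 higher). Without control replicate 2 the median was -0.042, with 26 genes higher and 51 lower, and without control replicate 1 it was 0.17. Compared by shared number, the medians were 0.015 (47 higher) for replicate 1 and 0.12 (67 higher) for replicate 2.

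No ribosomal protein gene was called between the duplexes. The limma test of 5p duplex against 3p.1 duplex called 0 of 77, with a lowest adjusted p of 0.784, beside 0.433% of all genes called. At an unadjusted p under 0.05 there were 0 of 77, beside 9.34% of all genes. With the replicate number as a block 0 of 77 were called and 1 of 77 was at an unadjusted p under 0.05. The median was 0.032 against 0.0055 over all genes, and 50 genes were higher with the 5p duplex and 27 lower. Under quantile normalization the split was 42 against 35, without 5p duplex replicate 1 it was 24 against 53, and without 3p.1 duplex replicate 2 it was 25 against 52.

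RPS27 had the highest estimate, 0.17 ± 0.18 SE with a 95% interval of -0.25 to 0.60 (adjusted p = 0.851 by limma), and its libraries overlapped between the duplexes. RPL34 had 0.16 ± 0.12 SE (adjusted p = 0.784 by limma) and RPS27A 0.14 ± 0.15 SE (adjusted p = 0.853 by limma). The RPS27A estimate was -0.021 without 5p duplex replicate 1. RPL36 was at 1098 and 1213 TPM in the 5p libraries and at 1280 and 1209 TPM in the 3p.1 libraries, an overlap at the second libraries (log2 -0.11 ± 0.12 SE, adjusted p = 0.867 by limma). RPL27 was at 2368 and 2484 TPM against 2668 and 2550 TPM (log2 -0.10 ± 0.10 SE, adjusted p = 0.839 by limma). RPL41 had -0.10 ± 0.11 SE (adjusted p = 0.852 by limma). Both 5p libraries of RPL27 and of RPL41 lay below both 3p.1 libraries, yet the differences did not pass the test.

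**Figure D4:**
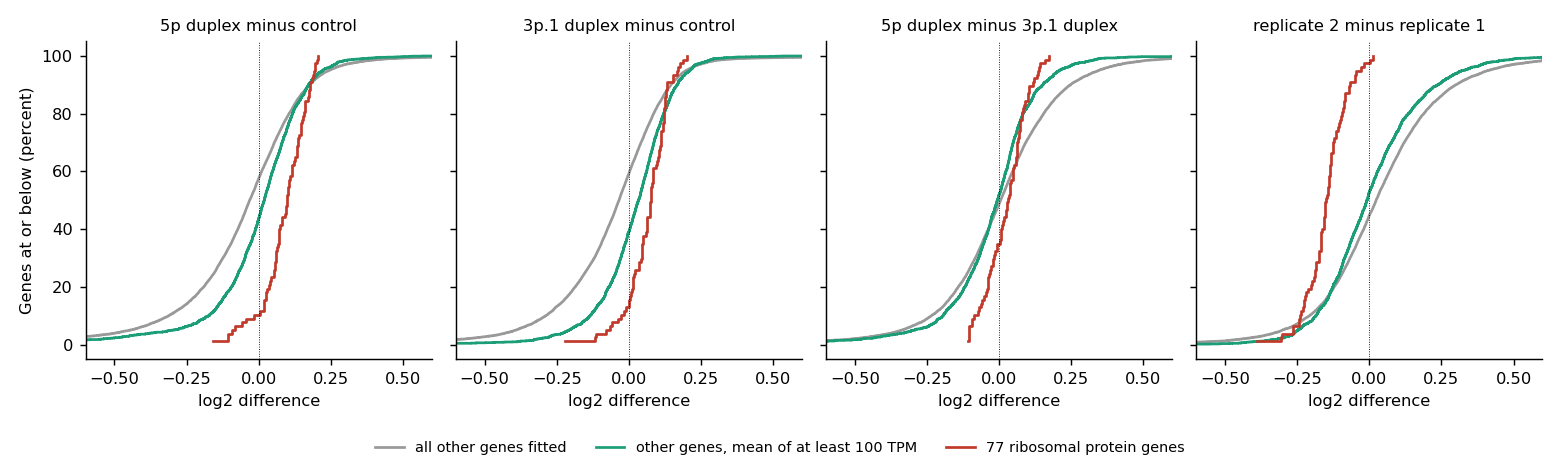
Cumulative distributions of the estimated log2 difference of log2(TPM + 1) for the 77 ribosomal protein genes, for all other genes fitted and for other genes averaging 100 TPM or more, in each of 4 comparisons, cut at 0.6 on either side. The curve of the ribosomal protein genes is the steepest in each panel, and it lies furthest from 0 between replicate numbers, with a median of -0.15.

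The largest median difference of the 4 comparisons was between libraries of different replicate number and the same treatment. In a limma fit with group and replicate number as terms, 11 of 77 genes (14.3%) were called and all 11 were lower in replicate 2, beside 9.4% of all genes called in either direction and 3.58% called lower. At an unadjusted p under 0.05 there were 48 of 77 (62.3%), beside 29.2% of all genes. The median over the set was -0.15 (a fold of 0.901), with 75 genes lower and 2 higher, against 0.023 over all genes. For 56 of 77 genes (72.7%) replicate 2 was the lower library in all 3 groups, beside 22.4% of all genes. The median difference between replicate numbers was -0.22 in the controls (77 of 77 lower), -0.11 in the 5p group (60 of 77) and -0.10 in the 3p.1 group (71 of 77).

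RPL12, a protein at the base of the P stalk, was at 2611 and 2084 TPM in control replicates 1 and 2, 2773 and 2109 in the 5p libraries and 2583 and 1889 in the 3p.1 libraries (log2 -0.39 ± 0.046 SE, adjusted p = 0.0136 by limma). Every replicate 2 library was below every replicate 1 library for this gene. RPS24 had -0.30 ± 0.052 SE (adjusted p = 0.027 by limma) and RPS27 -0.30 ± 0.045 SE (adjusted p = 0.0222 by limma). All replicate 2 libraries of RPS24 and RPS27 were likewise below all replicate 1 libraries, and RPL12, RPS24 and RPS27 had the highest coefficients of variation in the set.

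The other called genes were spread over both subunits and the stalk. All were called on these same differences, so the order of their libraries is a description and not further evidence. RPS12 was at 2143 and 1713 TPM in the controls, 2256 and 1884 in the 5p libraries and 2173 and 1871 in the 3p.1 libraries (log2 -0.27, adjusted p = 0.0269 by limma). RPL21 was at 2464 and 2045, 2644 and 2074, and 2391 and 2115 TPM (log2 -0.27, adjusted p = 0.0326 by limma). RPS14, whose single-copy loss marks the anaemia of the 5q deletion syndrome, was at 2212 and 1776, 2257 and 1946, and 2193 and 1903 TPM (log2 -0.24, adjusted p = 0.0326 by limma). In each of these genes all replicate 2 libraries lay below all replicate 1 libraries. RPSA, also described as a laminin receptor, was at 1523 and 1313, 1690 and 1440, and 1619 and 1346 TPM (log2 -0.24, adjusted p = 0.0307 by limma). RPS13 was at 2521 and 2227, 2743 and 2249, and 2539 and 2181 TPM (log2 -0.23, adjusted p = 0.0355 by limma). RPL30 was at 2061 and 1743, 2137 and 1742, and 1995 and 1801 TPM (log2 -0.23, adjusted p = 0.0417 by limma). The numbers again separated completely for RPSA, RPS13 and RPL30. RPLP1 had -0.23 (adjusted p = 0.0387 by limma). The X-linked RPS4X was at 1829 and 1560, 1967 and 1704, and 1841 and 1648 TPM (log2 -0.20, adjusted p = 0.0449 by limma).

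**Figure D5:**
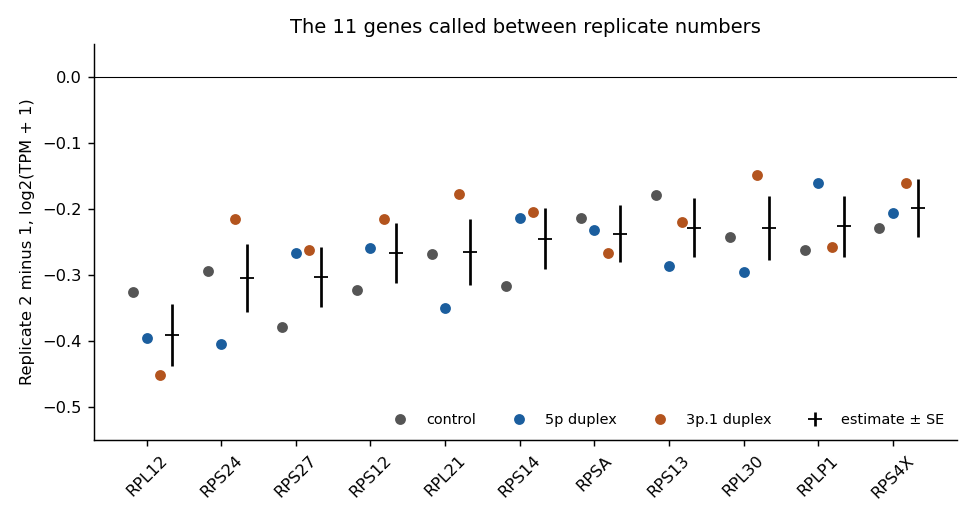
Replicate 2 minus replicate 1 on the log2(TPM + 1) scale for the 11 called genes, with 1 point per group and the limma estimate with its SE in black. All 33 points are under 0, which is likely from the choice of genes called on these same differences. RPL12 has the lowest estimate at -0.39.

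The calls between replicate numbers were sensitive to the fit. They numbered 0 without the filter on low genes, 1 under quantile normalization, 1 without the variance trend and 1 without the group term. With 1 library left out, which leaves a group with 1 library, the calls were fewer or absent. Some of them fell on genes outside the 11. Under every alternative run, 68 to 77 of the 77 genes were lower in replicate 2.

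At the upper end, RPL37 had 0.012 and RPL13 0.0016, and RPL32, at 681.7 and 614.2, 731.5 and 701.4, and 650.0 and 723.6 TPM, had -0.019. None of these 3 passed the test, and the sign of each turned under some alternatives. Small-subunit genes had a median of -0.17 (31 of 31 lower) and large-subunit genes of -0.14 (41 of 43 lower). The 46 genes with a TOP-type start had a median of -0.16 and the 16 matched genes without one had -0.14. Genes that hold a snoRNA had -0.14 and the others -0.15. Transcript length moved with the difference between numbers among other genes. In 1700 other genes averaging 100 TPM or more the Spearman correlation of length with the difference was 0.22, and the median was -0.046 under 1000 nt and 0.052 at 4000 nt and over. Ribosomal protein genes under 1000 nt had -0.15 (44 genes) and those of 4000 nt and over -0.045 (5 genes). Length was not tied to this comparison alone. In the 1700 other genes its correlation with the difference from the controls was 0.22 for the 5p duplex and 0.14 for the 3p.1 duplex. The part of transcript length, RNA quality or culture state in the difference between numbers was not tested.

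Ribosomal proteins named outside the symbol pattern had estimates in the same range. FAU, made as a fusion with a ubiquitin-like sequence, and RACK1, a scaffold protein of the small subunit, had positive estimates with both duplexes and negative ones for replicate 2, and neither was called in any comparison. FAU was at 553.7 and 481.8 TPM in the controls, 538.4 and 554.4 in the 5p libraries and 565.1 and 507.6 in the 3p.1 libraries. Of 8 paralogs with their own symbols 6 were fitted, and 1 of these was called. RPS27L, a p53-responsive paralog of RPS27, was lower in replicate 2, at 293.4 and 188.0, 286.6 and 213.0, and 269.9 and 194.7 TPM (log2 -0.51, adjusted p = 0.0137 by limma). The p53 targets MDM2 (log2 -0.42, adjusted p = 0.0211 by limma) and CDKN1A (log2 -0.48, adjusted p = 0.0357 by limma) were lower in replicate 2 as well, 2 of 4 genes on that list.

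Translation factors and other TOP mRNAs had median differences of 0.11 for 5p against control (14 of 18 higher), 0.11 for 3p.1 against control (16 of 18 higher) and -0.092 between replicate numbers (13 of 18 lower), with 0 of 18 called in any comparison. Without 5p duplex replicate 1 the first of these was 0.0063 with 9 of 18 higher. Without control replicate 2 the medians against the controls were 0.058 (13 of 18 higher) for the 5p duplex and 0.085 (14 of 18 higher) for the 3p.1 duplex. EEF2, the elongation factor that binds the P stalk, was at 831.2 and 849.1 TPM in the controls, 927.5 and 1004 in the 5p libraries and 953.7 and 919.9 in the 3p.1 libraries, above both controls in all 4 duplex libraries (log2 0.20 for the 5p duplex, adjusted p = 0.574 by limma). Mitochondrial ribosomal proteins, also 77 genes, had medians of -0.013, 0.022 and -0.065 in the same comparisons. Of 12 genes of mTOR and translation control, 0 was called for a duplex, and EIF4EBP2, an inhibitor of cap-dependent initiation, was higher in replicate 2 (log2 0.29, adjusted p = 0.0417 by limma).

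Ribosome biogenesis genes, whose products take part in making ribosomes, had another pattern. With the 3p.1 duplex 32 of 35 were higher than in the control with a median of 0.14, and with the 5p duplex 16 of 35 were higher with a median of -0.0045. Between duplexes 32 of 35 were lower with the 5p duplex, with a median of -0.15. None of the 35 was called by limma in these comparisons. With any 1 library of the groups compared left out, 29 to 33 genes were higher for the 3p.1 duplex and 29 to 31 were lower for the 5p duplex against the 3p.1 duplex. RRP1 was at 73.0 and 75.4 TPM in the controls, 69.0 and 78.2 in the 5p libraries and 88.7 and 93.1 in the 3p.1 libraries (3p.1 duplex against control log2 0.29, adjusted p = 0.604 by limma). DKC1, the pseudouridine synthase of box H/ACA particles, was at 111.9 and 124.0, 125.0 and 131.9, and 136.1 and 151.5 TPM (log2 0.28, adjusted p = 0.649 by limma). FBL, the methyltransferase of box C/D particles, was at 232.8 and 223.2, 218.6 and 227.9, and 255.6 and 255.0 TPM. The 3p.1 libraries of RRP1, DKC1 and FBL were above all 4 other libraries, while the ribosomal protein genes themselves differed between duplexes by a median of 0.032. NPM1 is on both the ribosome biogenesis list and the list of translation factors and other TOP mRNAs, and these 2 lists are otherwise separate.

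The mature miR-324 strands in RefSeq are printed because their seeds, in capitals (bases 2 to 8), set the 3′ UTR sites that were searched.
hsa-miR-324-5p, chr17:7223343-7223364, minus strand: cGCAUCCCcuagggcauuggug
hsa-miR-324-3p, chr17:7223308-7223330, minus strand: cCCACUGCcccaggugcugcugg

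The site of miR-324-5p, GGGATGC, was present in the principal 3′ UTR of 2 of 77 ribosomal protein genes (2.60%), RPL41 and RPS15A, against 7.40% of 11756 fitted genes. Both 5p libraries of RPL41 and RPS15A overlapped the controls, and their estimates with the 5p duplex were 0.018 and 0.12. The site of miR-324-3p, GCAGTGG, was present in 9 of 77 (11.7%) against 20.1%. Those 9 genes, among them RPL13, RPL37 and RPS19, had a median difference of 0.084 for 3p.1 against control, and the 68 without it had 0.073. In the longest annotated 3′ UTR of each gene the miR-324-5p site was present in 4 of 77 (5.19%) against 8.80%, and the miR-324-3p site in 19 of 77 (24.7%) against 24.3%, so the lower share of the latter depends on the transcript chosen. The labels name the 3p.1 duplex without its bases, so its seed may not be the one printed.

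Reads can be shared with processed pseudogenes, of which the human genome holds many copies for these genes. Symbols of the form of a ribosomal protein gene followed by P and a number were listed 29 times, for 18 of the 77 genes, and together held 0.15% of the TPM of the set. The largest relative to its gene was RPSAP58, at 6.27% of RPSA, with 102.7 and 80.4 TPM in the controls, 106.0 and 86.8 in the 5p libraries and 100.7 and 83.3 in the 3p.1 libraries. Adding pseudogene TPM to each gene left 0 of 77 called for either duplex and 11 between replicate numbers. How reads were divided between a gene and its copies is not given in the sources used here, so single values remain uncertain to that extent.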

How the data were processed

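Each library is a table of symbols and TPM values made by the authors. RSEM and GRCh38 are named per the submitters' processing notes. The versions, aligner and annotation were not given in the sources used here. Unlisted symbols were taken as 0 and repeated symbols were summed. Groups and replicate numbers were taken from the labels. log2(TPM + 1) of the 13400 genes averaging 1 TPM or more was fitted with limma 3.58.1 in R 4.3.3, as group means over all 6 libraries with a variance trend, two-sided, adjusted over all genes. The fit was tested on simulated data, with noise independent between libraries and planted changes larger than any estimate of the set. That test therefore does not cover a shift shared by replicate number, or changes as small as those of the set. With 2 libraries a group an exact permutation test cannot go below p = 0.33, so none was run. Genes and lists were chosen with earlier results of these data known. Values were given for the 5 highest and 5 lowest genes, for called genes or otherwise the 3 highest and 3 lowest estimates per comparison, and for 12 others with well-known roles. Alternatives changed the pseudocount (0.1), filter (none, 5 TPM), scaling, pseudogenes, variance trend, groups fitted, replicate block and libraries. Leaving libraries out of the lists of other genes was added after seeing the data. Promoters and microRNAs came from RefSeq, and transcripts, principal by annotation, from GENCODE 29. Values of some single genes are not reported here.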

Additional observations from a re-analysis of the deposited data

Results flagged for a closer look

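For 21 of the 77 ribosomal protein genes the difference between replicate 2 and replicate 1 had one sign in some groups and the opposite sign in another. The other 56 were lower in replicate 2 in all 3 groups. Of all 13400 genes fitted, 3006 were lower and 3885 higher in all 3 groups, so mixed signs were not particular to the set. With 1 pair of libraries per group these differences between groups were not tested. Values are given for the 3 of these genes with the highest estimates of the set between replicate numbers, which all lie near 0. RPL13 had -0.11 in the controls, 0.18 with the 5p duplex and -0.068 with the 3p.1 duplex, on the log2(TPM + 1) scale. RPL32 had -0.15, -0.060 and 0.15 in the same order. RPL37 had -0.085, 0.088 and 0.032.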

How the results depend on the processing

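For the duplex comparisons 0 of 77 ribosomal protein genes was called under every alternative run. Leaving out 1 library moved the median from -0.0051 to 0.21 for the 5p duplex (0.208 without control replicate 1) and from -0.042 to 0.17 for the 3p.1 duplex (-0.042 without control replicate 2), and from -0.043 to 0.090 between duplexes. Scaling alternatives gave 0.064 to 0.13 for the 5p duplex. Between replicate numbers the calls numbered 0 without a filter, 1 under quantile normalization, 1 without a variance trend, 1 without a group term and 0 to 8 without 1 library, against 11, and the fits without a 3p.1 duplex library gave 0. Fewer libraries and, for the filter, more genes tested entered those fits; the cause of the others was not tested. Leave-one-out estimates crossed 0 for RPS24 with the 5p duplex (-0.31 to 0.097), RPLP2 with the 3p.1 duplex (-0.31 to 0.075), RPS27A between duplexes (-0.021 to 0.31), and between replicate numbers for RPL13 (-0.089 to 0.057), RPL32 (-0.11 to 0.047) and RPL37 (-0.027 to 0.060). Under quantile normalization, median-of-ratios scaling and scaling without the ribosomal protein genes, RPL13 had -0.016, -0.021 and -0.022 and RPL37 -0.0036, -0.011 and -0.012. RPL32 had 0.0093 under quantile normalization.

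The replicate block, a term for the shared replicate number, left 0 of 77 called for each duplex comparison (median 0.097, 0.075 and 0.032, lowest adjusted p = 0.126, 0.209 and 0.178 by limma). The calls over all genes rose from 62 to 367, from 2 to 30 and from 58 to 278. At an unadjusted p under 0.05 there were 18, 9 and 1 of 77 with the block. The share of all genes at that cut is not given here, so these counts cannot be set against a background. Libraries of the same number deviated together over all genes (r = 0.265, 0.375 and 0.383 for the 3 pairs of groups), which is a hint from the data and not part of the design. Depth is unknown, and 2 libraries a group limit every interval.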
